A study of Homo sapiens with 4 samples.

Results

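The genes of bile acid sensing, transport and conjugation examined here were 9 of the 59652 counted, chosen as a named list by their symbols, and were measured in 2 hepatocellular carcinoma (HCC) cell lines, Huh7 and PLC. The 9 members were the receptor NR1H4, the repressor NR0B2, the uptake carriers SLC10A1, SLCO1B1 and SLCO1B3, the efflux carriers SLC51A and SLC51B, and the conjugation enzymes SLC27A5 and BAAT. RNA-seq was performed on Huh7 and PLC cells, both of wild-type (WT) genotype, after 48 h in glucose-free DMEM with FBS and antibiotics to which glucose was added, to 5 mM (low-glucose cells) or to 25 mM (high-glucose cells). Before this, per the study's methods, the lines were kept in high-glucose DMEM. Each line at each concentration gave 1 library, so the 4 libraries contain no replicate of any condition, and nothing says how many dishes stand behind a library. The libraries held 16049686 to 30279716 counted reads.

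Expression is given as FPKM, the reads of a gene scaled to the length of its exons and to the library's total of counted reads, so that levels of genes of different length can be set side by side. Intervals are exact 95% intervals (Poisson for a level, Clopper-Pearson for a ratio of 2 libraries), and they cover counting error only. These are bulk measurements, in which fewer cells of a kind and less RNA per cell cannot be told apart. The hepatocyte label was checked with 8 markers, whose summed level was 3963 and 3986 FPKM in the Huh7 libraries and 455 and 636 FPKM in the PLC libraries. By the quasi-likelihood test of edgeR, 7 of the 8 were higher in Huh7 cells (all genes tested 21.8%), and HNF4A was not called. The transthyretin gene TTR is a defining hepatocyte marker. It had 4 and 0 reads in PLC cells at 5 and 25 mM, against 1839 and 2599 in Huh7 cells. TTR passed the filter on low counts only through Huh7 cells, so its call adds nothing to the reads. The 6 bile duct markers summed to 96.6 to 99.6 FPKM in Huh7 cells, against 54.1 to 59.2 FPKM in PLC cells. Of these 3 were called higher in Huh7 cells (all genes 21.8%), CFTR was called higher in PLC cells (all genes 21.1%) and KRT7 was at 0 reads in Huh7 cells. Among the 3, KRT19 had 1 and 0 reads in PLC cells and EPCAM 4 and 2. Both passed the filter only through Huh7 cells, so their calls add nothing to the reads. The 4 enterocyte markers summed to 23.1 to 26.4 FPKM in Huh7 cells, against 3.86 to 8.10 FPKM in PLC cells, and 3 of them were called higher in Huh7 cells (all genes 21.8%). Of these SI had only 10 and 20 reads in Huh7 cells, against 0 in both PLC libraries, so its call adds nothing to the reads either. Markers of blood summed to at most 0.167 FPKM, those of fibroblasts and stellate cells to at most 0.612 FPKM, and those of endothelium to at most 2.55 FPKM with VWF at 0 reads in 3 libraries. The line and most of the called markers move together, while CFTR goes the other way and HNF4A was not called. The part of the line, its hepatocyte programme and these other markers in the differences below was not tested.

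Bile acids are made from cholesterol in hepatocytes, joined to glycine or taurine, secreted into bile and taken back up from portal blood. Their nuclear receptor, farnesoid X receptor (FXR, encoded by NR1H4), binds DNA mostly as a heterodimer with the retinoid X receptor. Among the genes that FXR is known to induce are NR0B2, which encodes the small heterodimer partner (SHP), a repressor of bile acid synthesis, and both subunits of the basolateral efflux carrier, organic solute transporter alpha (SLC51A) and beta (SLC51B). SLC10A1 encodes NTCP, the sodium-dependent carrier of conjugated bile acids, and SLCO1B1 and SLCO1B3 encode the sodium-independent carriers OATP1B1 and OATP1B3. SLC27A5 encodes the ligase that activates bile acids with coenzyme A, and BAAT encodes the transferase that then attaches the amino acid.

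Promoter windows of RefSeq on GRCh38.p14, from 250 bases before to 50 bases after an annotated start, were matched for 8 of the 9 members and gave 9 windows. They were searched on both strands for AGGTCA, the hexamer that many nuclear receptors bind. The 5 windows shown carry the results, and have every match to it, or to its reverse complement TGACCT, in capitals. That of NR1H4 is shown since the receptor had the largest difference between the lines of the members. SLCO1B1 and SLCO1B3 are paralogs with unlike levels in PLC cells, and the SLCO1B1 window holds no match. In the SLC51B window the hexamer is followed by letters that match part of a second, inverted copy. The BAAT window with a match is shown since BAAT was the member past the glucose thresholds, given with the glucose comparison, in both lines.
NR1H4 chr12:100503110-100503409 (+): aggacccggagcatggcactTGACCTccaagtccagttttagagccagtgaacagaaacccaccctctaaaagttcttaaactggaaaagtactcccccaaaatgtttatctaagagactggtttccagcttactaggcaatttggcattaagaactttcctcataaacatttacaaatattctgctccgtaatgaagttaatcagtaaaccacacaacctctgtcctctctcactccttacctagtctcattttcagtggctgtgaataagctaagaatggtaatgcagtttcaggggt
SLCO1B1 chr12:21130944-21131243 (+): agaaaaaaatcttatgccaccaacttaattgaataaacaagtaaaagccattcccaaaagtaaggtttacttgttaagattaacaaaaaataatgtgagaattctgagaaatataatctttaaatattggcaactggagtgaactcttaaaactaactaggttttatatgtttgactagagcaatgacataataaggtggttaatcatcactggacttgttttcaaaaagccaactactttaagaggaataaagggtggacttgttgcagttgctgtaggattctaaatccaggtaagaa
SLCO1B3 chr12:20810455-20810754 (+): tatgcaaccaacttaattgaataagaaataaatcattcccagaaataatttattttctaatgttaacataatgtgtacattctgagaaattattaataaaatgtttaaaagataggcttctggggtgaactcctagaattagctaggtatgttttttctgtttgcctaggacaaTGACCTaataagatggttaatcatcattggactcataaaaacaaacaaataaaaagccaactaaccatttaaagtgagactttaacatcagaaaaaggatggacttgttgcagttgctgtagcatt
SLC51B chr15:65045137-65045436 (+): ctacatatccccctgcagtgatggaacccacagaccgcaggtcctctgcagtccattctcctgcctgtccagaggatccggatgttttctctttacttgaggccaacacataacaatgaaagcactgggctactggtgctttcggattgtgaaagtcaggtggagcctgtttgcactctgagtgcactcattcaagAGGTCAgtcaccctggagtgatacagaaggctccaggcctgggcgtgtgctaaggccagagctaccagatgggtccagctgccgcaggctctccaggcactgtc
BAAT chr9:101383515-101383814 (-): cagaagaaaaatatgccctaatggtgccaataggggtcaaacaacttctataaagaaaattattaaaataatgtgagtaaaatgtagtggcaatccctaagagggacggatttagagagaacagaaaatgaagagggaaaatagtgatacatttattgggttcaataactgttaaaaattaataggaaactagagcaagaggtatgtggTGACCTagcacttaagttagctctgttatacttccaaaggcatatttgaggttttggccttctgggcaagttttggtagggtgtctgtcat

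The windows shown for NR1H4 and BAAT lie at starts within these genes, downstream of their annotated 5′ ends. The other BAAT window held no match. AGGTCA was found in 5 of the 9 member windows, those of NR1H4, SLCO1B3, SLC51B, SLC10A1 and BAAT, against 13.8% of the 35116 windows in the table. The form of the FXR element with both copies whole, AGGTCANTGACCT, occurred in 0 windows of the table. The looser form AGGTCANTNACC was searched after the SLC51B window had been read. It leaves out the letters at which that window differs from the whole form, so SLC51B had to match. The looser form occurred in 13 of 35116 windows (0.0370%), which is the share of a form fitted to the SLC51B window. SLC51B, where the match begins 54 bases before the start, was the member among them. Whether the members hold this form more often than other genes was not tested. No member window held CACGTG, the E-box of which the glucose-responsive element is built, which occurred in 7.26% of all windows. The windows of SLCO1B1 and SLCO1B3 were aligned with 221 identical bases and 38 mismatches, an identity of 85.3% of the aligned bases, with 82 further bases opposite gaps. The TGACCT match of the SLCO1B3 window began 76 bases before the start. A match describes the letters of a window and is not a measured binding site.

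The first comparison asked how the lines differed in these genes. Between Huh7 and PLC cells, 6 of the 9 members differed by edgeR's quasi-likelihood test with glucose as a covariate (Benjamini-Hochberg adjusted p under 0.05 over 23217 genes), where 42.9% of all genes tested were called. NR1H4 and SLCO1B3 were higher in Huh7 cells (all genes 21.8%), and NR0B2, SLC51B, SLC27A5 and BAAT were higher in PLC cells (all genes 21.1%). SLC10A1, SLCO1B1 and SLC51A were not called. For the same 6 genes the FPKM of the 2 Huh7 libraries did not overlap that of the 2 PLC libraries, as held for 72.3% of all genes tested (37.1% with Huh7 above PLC cells and 35.1% with PLC above Huh7 cells). All 9 members passed the filter on low counts, but NR1H4, SLCO1B3 and SLC27A5 passed it only through the line where they were high. For these 3 the test thus adds nothing to the reads themselves. The p-values rest on 2 libraries a line and 1 residual degree of freedom. They measure the spread left after the line and glucose terms, which includes any difference of glucose response between the lines, and not the spread between cultures.

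**Figure D1:**
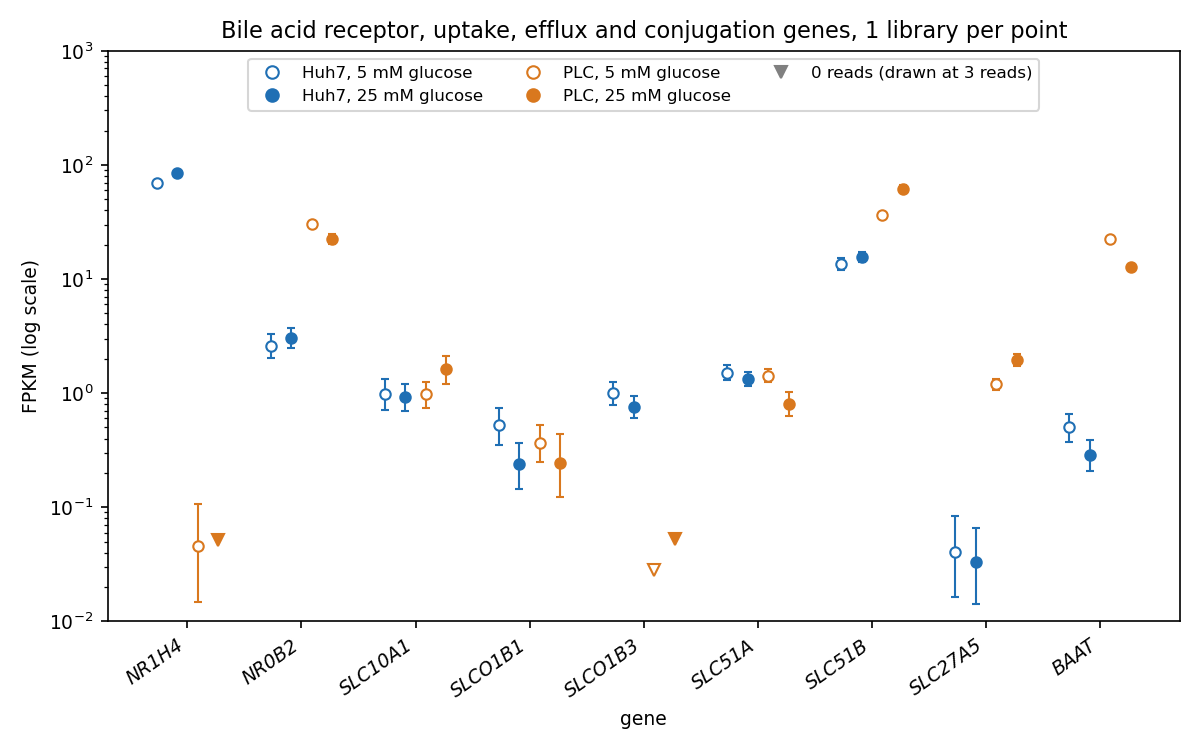
FPKM of the 9 genes on a log axis, 1 point per library with its 95% counting interval; blue is Huh7, orange is PLC, open points are 5 mM and filled points 25 mM glucose, and triangles mark 0 reads, drawn at the level of 3 reads. NR1H4 stands at 69.6 and 84.7 FPKM in Huh7 cells and near the floor in PLC cells, while BAAT, SLC27A5, NR0B2 and SLC51B are higher in both PLC libraries.

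NR1H4 (ENSG00000012504.15, chr12:100473708-100564414, plus strand, 15 merged exons of 3628 bases) was the member with the most reads. It was at 69.6 FPKM (67.7 to 71.5) in low-glucose and 84.7 FPKM (83.0 to 86.5) in high-glucose Huh7 cells, from 5397 and 9247 reads. PLC cells had 5 reads at 5 mM, or 0.0455 FPKM (0.0148 to 0.106), and 0 reads at 25 mM, where 3 reads would have been 0.0515 FPKM. The receptor's transcript was thus abundant in both Huh7 libraries and at or next to the detection limit in both PLC libraries. Huh7 cells exceeded PLC cells 1529-fold (655 to 4711) at 5 mM and at least 1644-fold at 25 mM. The p-value of the line is not given, since NR1H4 passed the filter on low counts only through Huh7 cells. The fitted log2 difference depends on the prior count where a line has next to no reads and is not given. AC010200.2, on the opposite strand within an intron of NR1H4 and with no shared exon base, had 73 and 140 reads in Huh7 cells, against 0 in both PLC libraries.

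NR0B2 (ENSG00000131910.5, chr1:26911489-26913975, minus strand, 2 exons of 1165 bases), the gene of the repressor SHP, ran the other way. Its level was 2.61 and 3.05 FPKM in Huh7 cells at 5 and 25 mM, and 30.3 and 22.4 FPKM in PLC cells, from 65, 107, 1068 and 418 reads. Both PLC libraries lay above both Huh7 libraries, by 11.6-fold (9.03 to 15.1) at 5 mM and 7.32-fold (5.91 to 9.14) at 25 mM. The fitted log2 difference of Huh7 minus PLC was -3.20 (SE 0.33, edgeR adjusted p = 5.24e-06). The line with the low receptor transcript thus had the higher transcript of this receptor target. Other genes that FXR is known to induce did not all run this way. SLC51B was also higher in PLC cells, SLC51A was not called, and FGF19, induced in the intestine, had reads only in Huh7 cells. NR0B2 lies within an intron of NUDC on the opposite strand, and the exons share no base.

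Of the uptake carriers, SLC10A1 (ENSG00000100652.5, chr14:69775416-69797241, minus strand, 5 exons of 2002 bases) was low in every library. Its FPKM was 0.981 and 0.930 in Huh7 cells, against 0.973 and 1.62 in PLC cells, from 42, 56, 59 and 52 reads. Each library's interval overlapped that of its neighbour in the order of levels. At 5 mM the ratio of Huh7 to PLC was 1.01 (0.662 to 1.52), whereas at 25 mM PLC cells were 1.74-fold (1.17 to 2.59) higher. Over both concentrations the line was not called (log2 Huh7 minus PLC -0.40, SE 0.47, edgeR adjusted p = 0.526), which leaves room for a difference in either direction.

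SLCO1B1 and SLCO1B3 both lie on the plus strand of chromosome 12, at chr12:21131194-21239796 (ENSG00000134538.3, 15 merged exons of 2787 bases) and chr12:20810702-20916911 (ENSG00000111700.13, 18 merged exons of 3542 bases). SLCO1B1 was at 0.520 and 0.239 FPKM in Huh7 cells, against 0.367 and 0.246 FPKM in PLC cells, from 31, 20, 31 and 11 reads. These 4 intervals overlapped neighbour by neighbour, and the line was not called (log2 Huh7 minus PLC 0.25, SE 0.64, edgeR adjusted p = 0.789). SLCO1B3 was at 1.0 and 0.760 FPKM in Huh7 cells, from 76 and 81 reads, and had 0 reads in both PLC libraries. Against the floor of 3 reads per library, the Huh7 level of SLCO1B3 was at least 35.9-fold higher at 5 mM and at least 14.4-fold higher at 25 mM. The paralogs thus differed in PLC cells, where SLCO1B1 reads were present and SLCO1B3 reads were not, whereas in Huh7 cells SLCO1B3 FPKM was 1.93 and 3.19 times that of SLCO1B1. SLCO1B3 shares 1930 exon bases (54.5% of its own) with the readthrough gene SLCO1B3-SLCO1B7, which was listed with 0 reads in all 4 libraries, and reads that fit both, or that fit both paralogs, may have been left uncounted, so the level of SLCO1B3 is uncertain.

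SLC51A (ENSG00000163959.10, chr3:196211487-196243178, plus strand, 17 merged exons of 5263 bases) and SLC51B (ENSG00000186198.4, chr15:65045387-65053397, plus strand, 4 exons of 924 bases) encode the subunits of 1 carrier, and neither is known to transport bile acids alone. SLC51A was at 1.51 and 1.33 FPKM in Huh7 cells, against 1.42 and 0.805 FPKM in PLC cells, from 170, 211, 226 and 68 reads. PLC cells at 25 mM were the lowest library, below the interval of the next one, while the other libraries overlapped. At 25 mM Huh7 cells were 1.66-fold (1.25 to 2.21) above PLC cells, at 5 mM 1.07-fold (0.868 to 1.31), and the line was not called (log2 Huh7 minus PLC 0.39, SE 0.36, edgeR adjusted p = 0.407). SLC51B was at 13.6 and 15.6 FPKM in Huh7 cells, against 36.6 and 61.9 FPKM in PLC cells, from 269, 433, 1024 and 918 reads. It was higher in PLC cells by 2.69-fold (2.35 to 3.09) at 5 mM and 3.97-fold (3.54 to 4.47) at 25 mM, with a log2 difference of -1.72 (SE 0.27, edgeR adjusted p = 0.000227).

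The beta subunit's FPKM exceeded the alpha subunit's 9.01-fold and 11.7-fold in Huh7 cells at 5 and 25 mM, and 25.8-fold and 76.9-fold in PLC cells. This imbalance depends on the length used: with the 1430 bases of the canonical SLC51A transcript in place of all merged exons, SLC51A was at 5.56 and 4.90 FPKM in Huh7 cells, against 5.22 and 2.96 FPKM in PLC cells, and SLC51B stayed above it in all 4 libraries. SLC51A shares 389 exon bases (7.39% of its own) with the antisense gene PCYT1A, and SLC51B shares 61 (6.60%) with the antisense gene RASL12. PCYT1A had 2240 and 3088 reads in Huh7 cells, against 3748 and 1562 in PLC cells, many more than SLC51A and likewise lowest in PLC cells at 25 mM, and its part in the SLC51A counts was not tested. RASL12 had 92 and 143 reads in Huh7 cells, against 12 and 32 in PLC cells. Whether strand was used in counting is not given in the sources used here, so reads in these shared bases cannot be told apart.

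Both conjugation enzymes were higher in PLC cells. SLC27A5 (ENSG00000083807.10, chr19:58479512-58512413, minus strand, 10 merged exons of 8025 bases) had 7 and 8 reads in Huh7 cells, or 0.0408 and 0.0331 FPKM, against 290 and 253 reads in PLC cells, or 1.19 and 1.96 FPKM. PLC cells were thus 29.2-fold (14.0 to 73.4) higher at 5 mM and 59.3-fold (29.6 to 139) higher at 25 mM, with a log2 difference of -5.40 (SE 0.47). Per length of the canonical transcript of 2292 bases the PLC levels were 4.18 and 6.88 FPKM. The antisense gene ZNF446 shares 1131 exon bases (14.1% of those of SLC27A5) and had 42, 72, 155 and 121 reads in the same order of libraries, and its part in the SLC27A5 counts was not tested.

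BAAT (ENSG00000136881.12, chr9:101354182-101385400, minus strand, 8 merged exons of 4734 bases) was at 0.504 and 0.288 FPKM in Huh7 cells, from 51 and 41 reads, and at 22.5 and 12.7 FPKM in PLC cells, from 3219 and 965 reads. The difference between the lines was of the same size at both concentrations, 44.6-fold (33.8 to 60.0) at 5 mM and 44.1-fold (32.3 to 61.9) at 25 mM, with a log2 difference of -5.47 (SE 0.30, edgeR adjusted p = 1.62e-08). The antisense gene AL359893.1 shares 453 exon bases (9.57% of those of BAAT) and had 1 and 1 reads in Huh7 cells, against 36 and 10 in PLC cells, beside the 3219 and 965 of BAAT. In the pair of steps that attach glycine or taurine, then, the transcripts of both enzymes were low in Huh7 cells and present in PLC cells, the reverse of the receptor.

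**Figure D2:**
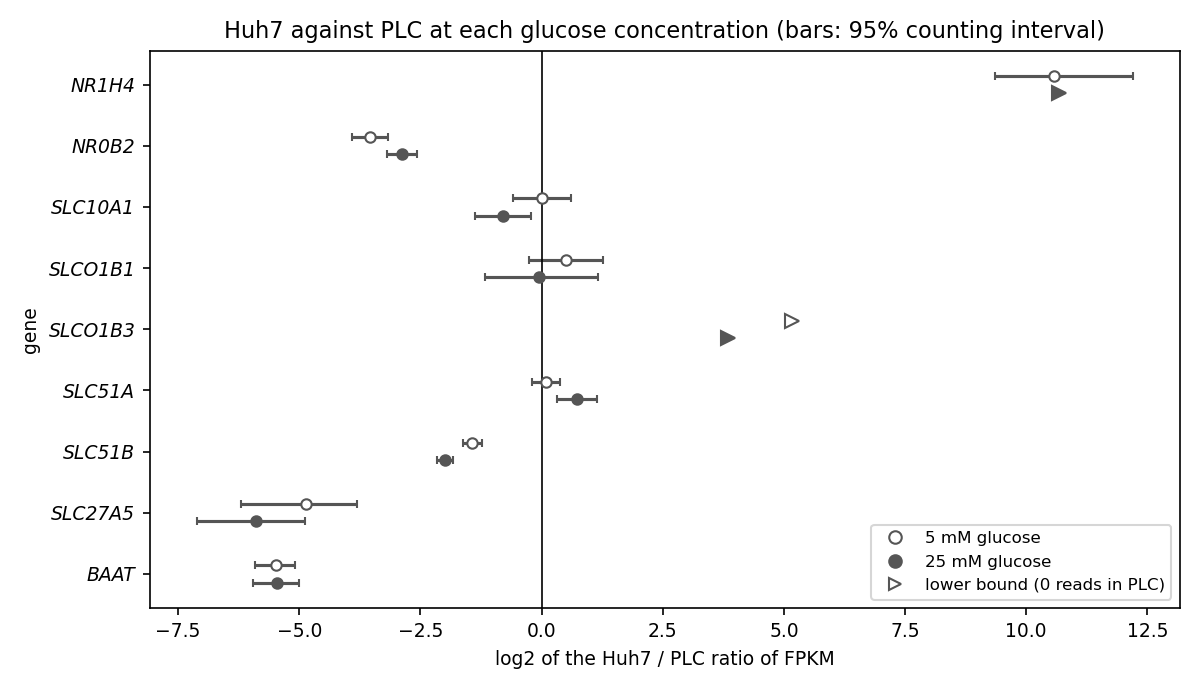
Log2 of the Huh7 to PLC ratio of FPKM for each gene, at 5 mM (open) and 25 mM glucose (filled), with 95% counting intervals; triangles are lower bounds where PLC cells had 0 reads. NR1H4 and SLCO1B3 lie to the right, NR0B2, SLC51B, SLC27A5 and BAAT to the left at both concentrations, and SLC10A1, SLCO1B1 and SLC51A lie nearest to 0.

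The second comparison, the one the study was designed for, set high-glucose against low-glucose cells within each line. With 1 library per condition there is no test of a ratio, so the study's thresholds were applied, FPKM over 0.5 (here in at least 1 of the 2 libraries) and a ratio over 1.5 or under 0.67, with 0.1 added to both FPKM values. The study set them to screen long non-coding RNAs, on transcript FPKM from StringTie. Here they were used on protein-coding members, with FPKM calculated from gene counts. In Huh7 cells 2 of the 8 members with FPKM over 0.5 were past them, SLCO1B1 and BAAT, both lower at 25 mM, beside 27.8% of all genes (14.1% higher and 13.7% lower). In PLC cells 5 of 6 members were past them, beside 43.3% of all genes (26.2% higher and 17.0% lower). SLC10A1, SLC51B and SLC27A5 were higher at 25 mM, and SLC51A and BAAT were lower. The median log2 ratio was -0.12 over the 8 members in Huh7 cells (all genes 0.04) and 0.12 over the 6 members in PLC cells (all genes 0.11). The PLC counts depend on the scaling of the libraries: TMM factors shift every PLC ratio by -0.16 on the log2 scale and DESeq2 size factors by -0.13, against -0.03 and -0.02 in Huh7 cells. With TMM scaling the PLC ratio of SLC10A1 was 1.44 and that of SLC27A5 was 1.43, both then short of 1.5, SLC51B stood at 1.51, and NR0B2, at 0.660, came past the lower threshold.

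BAAT was the member past the thresholds in both lines, in Huh7 cells by a narrow margin: its higher FPKM there was 0.504 (0.375 to 0.663) against a threshold of 0.5, and it did not pass with FPKM over 0.5 in both libraries or with 1 added to FPKM (ratio 0.856). Its FPKM went from 0.504 in low-glucose to 0.288 in high-glucose Huh7 cells, a ratio of 0.571 (0.369 to 0.879), and from 22.5 to 12.7 in PLC cells, a ratio of 0.566 (0.526 to 0.608). The ratios were nearly the same although the levels differed as described between the lines. In the fit of a glucose effect shared by both lines, BAAT had a log2 difference of 25 minus 5 mM of -0.90 (SE 0.26), lower in 2 of 2 lines, with an unadjusted p of 0.00454 and an edgeR adjusted p of 0.210 (0.124 to 0.343 over the alternatives), so it did not pass. By that test 0 of the 9 members were called and BAAT was the 1 member with an unadjusted p under 0.05, while 0.379% of all genes were called (0.0646% higher and 0.314% lower at 25 mM). Of all 23217 genes tested, 1975 had an unadjusted p under 0.05 in the same test. DESeq2 and limma also called 0 members.

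SLC27A5, the enzyme of the step before, moved the other way in PLC cells. Its FPKM was 1.19 at 5 mM and 1.96 at 25 mM there, a ratio of 1.65 (1.38 to 1.95), which is 1.60 with the constant. In Huh7 cells its 7 and 8 reads gave 0.812 (0.257 to 2.63), too wide for a direction. In PLC cells at 25 mM the transcripts of both conjugation enzymes were thus closer to each other than at 5 mM.

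The efflux subunits also parted in PLC cells. SLC51B was at 36.6 FPKM in low-glucose and 61.9 FPKM in high-glucose PLC cells, a ratio of 1.69 (1.55 to 1.85), while SLC51A was at 1.42 and 0.805 FPKM, a ratio of 0.568 (0.426 to 0.747). In Huh7 cells SLC51B had a ratio of 1.14 (0.980 to 1.34) and SLC51A of 0.882 (0.717 to 1.09), and both intervals include 1. The shared glucose effect was not called for SLC51B (log2 0.40, SE 0.27, edgeR adjusted p = 0.794) or for SLC51A (log2 -0.57, SE 0.36, edgeR adjusted p = 0.772).

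Among the uptake carriers, SLC10A1 had a ratio of 1.66 (1.12 to 2.46) in PLC cells and 0.947 (0.624 to 1.45) in Huh7 cells. SLCO1B1 had a ratio of 0.458 (0.248 to 0.830) in Huh7 cells, or 0.546 with the constant, resting on 31 and 20 reads, and 0.669 (0.304 to 1.37) in PLC cells, where its FPKM did not reach 0.5. SLCO1B3 had a ratio of 0.757 (0.547 to 1.05) in Huh7 cells, and none can be given in PLC cells with 0 reads in both libraries. The shared effect of SLCO1B1 was a log2 difference of -0.94 with an SE of 0.64 and an edgeR adjusted p of 0.809.

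NR1H4 and NR0B2 stayed within the thresholds when scaled to the library totals, but with TMM scaling NR0B2 came past the lower one in PLC cells. NR1H4 in Huh7 cells had a ratio of 1.22 (1.18 to 1.26), a difference larger than counting error but short of 1.5, and its 5 and 0 reads in PLC cells give no ratio. NR0B2 had a ratio of 1.17 (0.851 to 1.62) in Huh7 cells, against 0.738 (0.658 to 0.828) in PLC cells. Whether the response to glucose differed between the lines was not tested for any member, since a fit with that term has no residual degree of freedom.

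The members were then set beside 42 other genes of the bile acid pathway in 5 groups, of which 37 could be tested. Between the lines 24 of the 37 were called (all genes 42.9%), 17 higher in Huh7 cells (all genes 21.8%) and 7 in PLC cells (all genes 21.1%). Of the called genes CYP39A1, ABCB11, FOXA2 and FGF19 had under 10 reads in both PLC libraries. They passed the filter on low counts only through Huh7 cells, so the test adds nothing to their reads, as for 3 members. CYP27A1, also called, had 10 and 2 reads in PLC cells. Among all pathway genes tested with under 10 reads in both libraries of a line, 4 of 6 low in PLC cells and 0 of 2 low in Huh7 cells were called. For a shared glucose effect 0 of the 37 were called by edgeR (88 of all 23217 genes tested), with 7 of the 37 at an unadjusted p under 0.05 (1975 of all 23217). The median log2 difference of Huh7 minus PLC was 0.75 over these genes, -0.40 over the members and 0.03 over all genes tested. The first 2 of these medians are the values of single genes that were not called, CYP7B1 and SLC10A1, and the members went both ways.

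Of 14 synthesis genes 12 were tested, with 5 higher in Huh7 cells (all genes 21.8%), against 3 in PLC cells (all genes 21.1%). CYP39A1, which hydroxylates 24-hydroxycholesterol, was at a mean of 10.4 FPKM in Huh7 and 0.0519 FPKM in PLC cells, and CYP27A1, which starts the acidic route, at 3.54 and 0.0762 FPKM. HSD3B7, a dehydrogenase of the ring steps, was at 0.551 FPKM in Huh7 and 11.7 FPKM in PLC cells, and AKR1D1, the 5-beta-reductase, at 1.22 and 0.0951 FPKM. CYP7A1, the rate-limiting enzyme of the classic route and the gene that SHP represses, had 0 reads in all 4 libraries, so it could not be set against NR0B2. SLC27A2, a relative of SLC27A5 that also activates bile acid precursors, was higher in PLC cells too, at 2.26 against 0.187 FPKM.

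Of 9 export genes, 3 were higher in Huh7 cells (all genes 21.8%), against 3 in PLC cells (all genes 21.1%). ABCB11, the bile salt export pump, was low everywhere, with 67 and 47 reads in Huh7 against 0 and 2 in PLC cells (mean 0.304 and 0.00808 FPKM). ABCC3, a basolateral exporter like the SLC51 pair, was at 5.35 FPKM in Huh7 and 0.210 FPKM in PLC cells, the reverse of SLC51B. ABCB4, the phospholipid floppase, was at 2.88 and 0.179 FPKM, and ATP8B1, an aminophospholipid flippase, at 2.64 and 11.3 FPKM. Among other uptake genes 3 of 3 tested were higher in Huh7 cells (all genes 21.8%), as was SLCO1B3: the fatty acid and bile acid binding protein FABP1 was at 8.21 and 0.559 FPKM, the carrier SLCO1A2 at 1.67 and 0.144 FPKM and the carrier SLCO2B1 at 3.92 and 1.49 FPKM.

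Of 9 receptors and liver factors, 4 were higher in Huh7 cells (all genes 21.8%), against 0 in PLC cells (all genes 21.1%). RXRA, the partner of FXR, was at 10.6 FPKM in Huh7 and 2.97 FPKM in PLC cells (log2 1.84, SE 0.24, edgeR adjusted p = 4.17e-05), so the partner was present in both lines. FOXA2, a liver pioneer factor, went with NR1H4, with 2237 and 3022 reads in Huh7 and 4 and 0 in PLC cells. The xenobiotic receptor NR1I3 was at 1.04 and 0.440 FPKM. HNF4A and NR5A2, factors of many bile acid genes, were not called, with means of 30.0 and 36.8 FPKM and of 12.7 and 17.6 FPKM. In the feedback group FGF19, a hormone gene that FXR is known to induce in the intestine, had 528 and 575 reads in Huh7 and 0 in both PLC libraries, its co-receptor KLB was at 33.5 and 17.3 FPKM, and the repressor MAFG at 7.12 and 13.4 FPKM.

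Past the glucose thresholds in Huh7 cells were 5 of the 28 pathway genes with FPKM over 0.5 (all genes 27.8%), and in PLC cells 9 of 21 (all genes 43.3%), shares at or below those of all genes. In Huh7 cells these were HSD3B7 and AKR1C4, both higher at 25 mM with ratios of 1.63 and 1.78, and ABCC3, NR1I3 and MAFG, all lower, with ratios of 0.470, 0.588 and 0.628. In PLC cells ACOX2, SLC27A2 and AMACR were higher, with ratios of 3.03, 2.42 and 1.61, as were FABP1 (3.99, from 12 and 37 reads) and SLCO2B1 (1.72), and ABCC2, ABCG2, NR1I3 and MAFG were lower, with ratios of 0.570, 0.552, 0.478 and 0.335.

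The families of the members were counted as well, with the members in them. SLC27A2, SLCO1A2 and SLCO2B1 are also among the pathway genes above. Of 6 SLC27 genes 5 were tested, of which 3 were higher in PLC cells (SLC27A1, SLC27A2 and SLC27A5) (all genes 21.1%) and 0 in Huh7 cells. Of 12 SLCO genes 9 were tested, of which 5 were higher in Huh7 cells (all genes 21.8%) and 1, SLCO4A1, in PLC cells (all genes 21.1%). Of those called, SLCO2A1 and SLCO1B3 had 0 reads in both PLC libraries and SLCO4A1 had 0 reads in both Huh7 libraries. These passed the filter on low counts only through the other line, as SLC27A5 did through PLC cells, so their calls add nothing to the reads. Of 7 SLC10 genes 5 were tested, of which 1 was higher in each line, SLC10A7 in Huh7 cells (all genes 21.8%) and SLC10A3 in PLC cells (all genes 21.1%). SLC10A2, the ileal carrier, had 0 reads in all 4 libraries.

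The genes whose pattern over the 4 libraries was most like that of NR1H4 were found by the Euclidean distance of centred log2(FPKM + 0.1) values among 12709 protein-coding genes with at least 100 reads. Among the 5 nearest were the retinol carrier gene RBP4 (distance 0.356), the fetuin gene AHSG (0.417), the orosomucoid gene ORM1 (0.628) and the nucleotide carrier gene SLC17A9 (1.02). RBP4 was at 492 and 517 FPKM in Huh7 cells, against 1.13 and 0.684 FPKM in PLC cells. With 4 libraries, likeness to NR1H4 means high in both Huh7 libraries and near 0 in both PLC libraries.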

How the data were processed

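RNA was extracted by the authors with TRIzol, depleted of rRNA and made into directional libraries. The deposited values are counts of reads per gene, not normalized, and the submitters' processing notes name hg38, HISAT2 and featureCounts; versions, annotation release and strand setting are not given in the sources used here. Of 59657 lines of the table, 5 broken lines of ANK2 were left out. The depth was 21376239, 30085303, 30279716 and 16049686 reads in Huh7 cells at 5 and 25 mM and PLC cells at 5 and 25 mM glucose, and 3 reads equal 0.140, 0.0997, 0.0991 and 0.187 CPM.

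FPKM was calculated here from the counts, the exon length in the deposited table and the library totals. Counts were tested with edgeR 4.0.16 in R 4.3.3 (filterByExpr, TMM, quasi-likelihood test, line plus glucose, 4 libraries, Benjamini-Hochberg adjustment over 23217 genes), after a test on simulated data. Alternatives used DESeq2 1.42.0 and limma 3.58.1, other filters, scalings, constants and thresholds, and libraries left out in turn. The length of the canonical transcript and the line difference at each concentration were alternatives added after the data were seen. Exon overlaps were calculated from the exon coordinates deposited with the counts. Gene types and lengths of canonical transcripts were taken from GENCODE release 44.

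The members, pathway lists, markers and tests were chosen with earlier results of these data known. Named genes are the members, up to 4 pathway genes per group in order of size of difference with those past a threshold, family members, overlapping genes and genes among the 5 most like NR1H4; some genes that meet the rule are not reported here. CYP7A1, CYP7B1, HNF4A, NR5A2 and SLC10A2 were named after their values were seen.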

Additional observations from a re-analysis of the deposited data

Results flagged for a closer look

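Among the 9 members, 3 had glucose ratios on opposite sides of 1 in the lines, with over 3 reads in every library. For NR0B2 the ratio of FPKM at 25 to 5 mM was 1.17 in Huh7 cells and 0.738 in PLC cells. For SLC10A1 it was 0.947 in Huh7 cells and 1.66 in PLC cells. For SLC27A5 it was 0.812 in Huh7 cells and 1.65 in PLC cells. In these 3 the counting interval of the Huh7 ratio included 1 and that of the PLC ratio did not. Among the pathway genes past the thresholds in a line, ABCC3 had a ratio of 0.463 (0.427 to 0.502) in Huh7 cells and of 2.13 (1.35 to 3.36) in PLC cells, the latter from 39 and 44 reads, and SLCO2B1 had 0.968 (0.887 to 1.06) in Huh7 and 1.79 (1.53 to 2.09) in PLC cells. Each line gave 1 library per concentration, and whether the ratios differ between lines was not tested.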

How the results depend on the processing

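The calls of NR0B2, SLC51B and BAAT between the lines held, with their direction, under every alternative, and SLC10A1, SLCO1B1 and SLC51A were called under none of them. The calls of NR1H4, SLCO1B3 and SLC27A5 held wherever the gene could be tested. This adds no support, since a filter on low counts keeps them only through 1 line. With at least 10 counts in every library, NR1H4, SLCO1B3 and SLC27A5 could not be tested. Over all genes the number that differed between the lines was 9969, 6340 with at least 10 counts in every library, and 5249 (without Huh7 cells at 25 mM) to 11598 (without PLC cells at 25 mM) when libraries were left out in turn, with 5930 without Huh7 cells at 5 mM; a line left with 1 library is then assumed to vary like the other. The number with a shared glucose effect was 88 in all (17.0% higher at 25 mM), 526 without a filter (46% higher), 27 with at least 10 counts (0% higher), 197 by DESeq2 (36.0% higher) and 21 by limma (0% higher), and 0 members were among them in each. Past the glucose thresholds were 2 members in Huh7 cells (all genes 27.8%), but 0 with 1 added to FPKM, 0 with FPKM over 0.5 in both libraries and 0 with ratios over 2 or under 0.5. In PLC cells 5 members were past them (all genes 43.3%), 4 with TMM scaling, 3 with DESeq2 size factors (SLC51B, SLC51A and BAAT), 2 with 1 added and 0 with ratios over 2 or under 0.5. The shares of all genes under these alternative thresholds and scalings are not given here. The fitted glucose difference of NR1H4 changed sign between tools, from -1.31 to 0.09, since PLC cells had 5 and 0 reads. In Huh7 cells depth limits SLCO1B1, SLC10A1, SLC27A5 and BAAT, with 7 to 56 reads a library. No paired analysis was possible because each condition has 1 library and the labels carry no replicate numbers to use as a block, beyond the line term with which the shared glucose fit already compares the concentrations within each line.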
